A study of Arabidopsis thaliana with 24 samples.

Results

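The genes described here are those that were read in expanding leaves of Arabidopsis thaliana and hardly at all in emerging leaves. Organelle genes were set aside, levels were expressed per 1000000 nuclear counts of each library (CPM), and a gene was kept when its mean was at least 10 CPM over the 12 expanding-leaf libraries and at most 0.5 CPM over the 12 emerging-leaf libraries. The rule kept 65 of 37336 gene identifiers, or of the 10963 nuclear genes that reached the expanding minimum. The mirrored rule kept 70 genes for emerging leaves. Whole-leaf mRNA came from Col-0, the common laboratory line, and from gtl1-4, a knockout of GTL1, which encodes a trihelix transcription factor. Plants were held at 65 to 100% of the media water content (well-watered) or at 30% (water deficit), and leaves were taken 1 day after emergence or at 14 to 15 days. Each of the 8 groups had 3 libraries, and every library pooled 10 plants. The expanding groups are thus well-watered Col-0, water-deficit Col-0, well-watered gtl1-4 and water-deficit gtl1-4, all grown in short days. The mutant is represented by 1 line.

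An Arabidopsis leaf begins as a sink of dividing cells and becomes, as its cells expand, a source that fixes carbon and exports sucrose and amino acids through the phloem. Aliphatic glucosinolates, sulphur-rich defence compounds of the Brassicaceae, are built from methionine whose side chain is first lengthened. Leaves also raise their capacity for salicylic acid dependent defence as they age. The members were grouped by annotated product and known role: 5 act in glucosinolate or methionine-family synthesis, 10 in transport, 2 in metal homeostasis and 3 belong to the glutaredoxin and thioredoxin family. A further 7 are LURP-one-like, PCC1-like or ankyrin proteins, 6 are receptor-like kinases or receptors (1 of them, RLP49, a transcribed pseudogene grouped by its symbol), 5 act in the cell wall or growth, 10 are other enzymes, 6 are TRAF-like proteins or putative regulators and 11 have no clear role.

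The contrast between leaf ages chose the members, so it is given as a description without a test. Every one of the 65 was above 0 in all 12 expanding libraries. Their expanding means ran from 10.2 to 284 CPM with a median of 16.0, and the median of their emerging means was 0.176. NAS1 and AT4G01390 were listed at 0 in all 12 emerging libraries, and 5 members were above 0 in all of them. For 64 of the 65 the lowest expanding library lay above the highest emerging library. The library with the most weight gave at most 28.7% of a member's summed expanding level. Just inside the expanding minimum were SWEET12 at 10.2, AT1G53890 at 10.4 and NIP6;1 at 10.4 CPM. Just outside it were SAG29 (also named SWEET15) at 9.89, MES18 at 9.65 and AT5G10760 at 9.57. At the emerging limit AT3G26590 (0.497), UMAMIT30 (0.487) and AT1G67870 (0.479) were inside, and NATA1 (0.505), GolS3 (0.510) and PPDK (0.513) were outside. The set is a slice of a continuous range, as the plot of levels at both leaf ages shows.

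**Figure D1:**
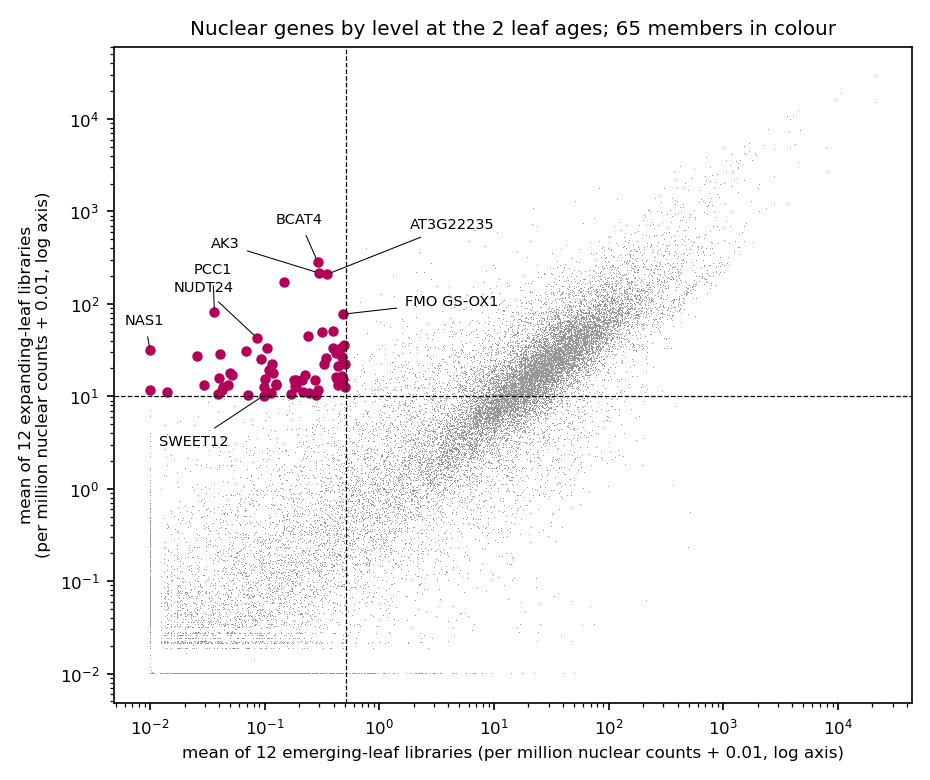
Mean level of each nuclear gene in emerging leaves (x axis) and expanding leaves (y axis), in CPM of nuclear counts plus 0.01, both on log axes. Coloured points are the 65 members, grey dots are the other nuclear genes, and dashed lines are the limits of 0.5 and 10 CPM. Members fill the upper left corner without a gap to the genes around it.

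Per kilobase of annotated exon, the highest mean levels in expanding leaves were those of AT3G22235 at 303.6 CPM per kb, BCAT4 at 196, PCC1 at 105.7, AT2G32870 at 96.1 and AT1G76960 at 90.9. The lowest was that of the receptor kinase gene RK1 at 3.60. The products of these leaders are a cysteine-rich transmembrane module protein, an aminotransferase of methionine chain elongation, a pathogen- and circadian-controlled protein, a TRAF-like protein and an uncharacterized protein. The levels per kb are means over all 12 libraries, to which gtl1-4 gave most for AT3G22235 and PCC1. AT3G22235 had group means of 208 (full water) and 423 CPM (deficit) in gtl1-4, against 125 and 78.3 for Col-0. For PCC1 the values were 88.2, 182, 36.0 and 21.2 in that order, and for BCAT4 322, 275, 340 and 199. An order per kb within Col-0 alone was not worked out. Of the 65 loci 62 are protein-coding, and 8 of those 62 (12.9%) have a single exon, against 7.501% of the protein-coding genes that reached the expanding minimum. In whole-leaf samples, fewer cells of a type and less RNA per cell cannot be told apart.

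The 11 root markers summed to at most 1.90 CPM in any expanding library and to 2.82 to 15.3 in emerging libraries, highest in water-deficit Col-0. The 13 floral organ markers summed to at most 3.28 in expanding and 0.966 in emerging libraries. The 10 phloem markers, which include the member SWEET12, summed to 74.8 to 152 CPM in emerging leaves. In expanding leaves they summed to 515 to 632 in well-watered Col-0, 629 to 883 in well-watered gtl1-4, 1051 to 1085 in water-deficit Col-0 and 843 to 1063 in water-deficit gtl1-4. No phloem marker was at 0 in all libraries of an expanding group. The part of phloem tissue in the leaf-age difference and in the water responses of transport genes was not tested.

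Depth in expanding libraries was 14.9 to 27.1 M counts (M, counts in units of 1000000), of which 4.74 to 10.04 M were nuclear and 62.2 to 78.6% came from chloroplast genes. GTL1, the disrupted gene, was read in all libraries of the mutant but at a lower level. With full water, Col-0 had a mean normalized count of 823 ± 113 and the mutant one of 272 ± 44.6 (SD, n = 3). That difference was -1.60 on the log2 scale (limma, adjusted p 8.00e-05). With deficit the means were 503 ± 75.9 and 136 ± 18.6, a difference of -1.88 (adjusted p 1.69e-05). Well-watered Col-0 replicate 3 lay farthest from its group over all genes, and water-deficit Col-0 replicate 2 held the highest of the 12 values for 20 members and the lowest for 13. They are the 2 libraries said below to stand apart, picked after seeing the data and not by a single measure. By distance from the group, well-watered Col-0 replicate 2 (0.586, root mean square on the log2 scale) exceeded water-deficit Col-0 replicate 2 (0.581). Among members, well-watered Col-0 replicate 1 was the highest library for 20 and well-watered gtl1-4 replicate 1 the lowest for 18.

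Promoter windows are printed for AT5G15500, the member with the widest water response, for PCC1 and AT3G22235, which were higher in gtl1-4 under deficit, and for AT1G53870, 1 of an identical pair that was lower in well-watered gtl1-4. Each is the 250 bases before the annotated gene start in TAIR10.1, from RefSeq, written 5′ to 3′ on the gene's strand, and capitals mark the motifs found. The motifs were TGACG (as-1 type, the element bound by TGA factors), ACGTGGC or ACGTGTC (ABRE, abscisic acid response element), CACGTG (G-box) and GGTAAA (GT box, the kind of site trihelix factors bind), each on both strands.
AT5G15500 (chr5:5033541-5033790, minus strand; capitals are ABRE and as-1 type motifs, which overlap): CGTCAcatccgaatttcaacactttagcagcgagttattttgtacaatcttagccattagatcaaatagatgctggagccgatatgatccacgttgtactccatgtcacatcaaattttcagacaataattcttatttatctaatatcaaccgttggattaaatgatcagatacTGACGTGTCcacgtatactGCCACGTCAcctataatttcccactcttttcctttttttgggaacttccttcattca
PCC1 (chr3:7846834-7847083, minus strand; capitals are as-1 type motifs): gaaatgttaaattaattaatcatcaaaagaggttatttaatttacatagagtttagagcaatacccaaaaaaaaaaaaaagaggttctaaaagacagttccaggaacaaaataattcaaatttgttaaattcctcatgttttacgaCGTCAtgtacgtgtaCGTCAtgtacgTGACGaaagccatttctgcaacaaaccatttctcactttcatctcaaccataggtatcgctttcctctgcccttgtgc
AT3G22235 (chr3:7855815-7856064, minus strand; capitals are as-1 type motifs): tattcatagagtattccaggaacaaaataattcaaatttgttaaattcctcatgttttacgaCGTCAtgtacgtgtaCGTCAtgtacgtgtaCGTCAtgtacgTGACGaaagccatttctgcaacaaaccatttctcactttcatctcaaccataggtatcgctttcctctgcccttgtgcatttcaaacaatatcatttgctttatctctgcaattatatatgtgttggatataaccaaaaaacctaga
AT1G53870 (chr1:20111891-20112140, plus strand; capitals are GT box, as-1 type and G-box motifs, and the window of AT1G53890 is identical): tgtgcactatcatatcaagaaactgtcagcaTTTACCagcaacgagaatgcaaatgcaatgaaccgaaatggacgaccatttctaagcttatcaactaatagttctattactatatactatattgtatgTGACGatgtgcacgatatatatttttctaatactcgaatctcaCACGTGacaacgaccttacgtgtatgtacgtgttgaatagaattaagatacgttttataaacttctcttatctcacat
The PCC1 and AT3G22235 windows aligned locally over 181 columns, of which 160 (88.4%) were identical. The as-1 type core occurs 3 times in PCC1, 4 times in AT3G22235 and 3 times in AT5G15500. The window of AT1G19960, a member annotated as a transcription factor, holds 3 as well. At least 3 copies were found in 0.583% of 27443 nuclear protein-coding windows and at least 4 in 0.106%. AT5G15500 also holds 2 ABRE matches, which 1.32% of windows do.

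Over the 62 protein-coding members, motif shares were near those of all windows for most motifs. The as-1 type motif was in 24.2% of member windows and 18.6% of all, the ABRE in 8.06 and 6.39%, the G-box in 6.45 and 6.49%, and the GT box in 19.4 and 14.8%. The W-box (TTGACC or TTGACT) was in 24.2 and 28.4%, and the GCC-box (GCCGCC) in 1.61 and 1.87%. The core of the dehydration-responsive element (CCGAC) was in 2 of 62 member windows (3.23%) and in 12% of all. A match is a description of letters and not of a bound site.

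Water deficit in Col-0 raised 11 members and lowered 13. Those raised were led by the ankyrin repeat gene AT5G15500, the TRAF-like gene AT4G01390, the glutaredoxin gene AT2G47880, NUDT24 and SWEET12. Those lowered were led by the sulfate transporter gene SULTR3;5, the lupeol synthase gene LUP1, UMAMIT12, NAS1 and the boric acid channel gene NIP6;1. A gene was called when limma's adjusted p was at most 0.05 over the 16522 genes tested. The 24 called members were 36.9% of the set, against 13.5% of all genes tested (6.18% raised and 7.32% lowered) and 15.6% of the nuclear genes at the expanding minimum. The median log2 fold change was -0.15 over members and 0.02 over all genes tested. The former ran from -0.08 without well-watered Col-0 replicate 1 to -0.28 without water-deficit Col-0 replicate 3, and was -0.24 without water-deficit Col-0 replicate 2. Membership was decided on the mean of 4 groups, so a gene strong in 1 condition could enter through it and these counts support nothing beyond their description. Of the 65, 36 reached 10 CPM in each of the 4 groups, and 13 of those 36 were called for water in Col-0. Among the leaders named, AT5G15500, AT4G01390 and SWEET12 reached it in the deficit groups alone. SULTR3;5, LUP1, UMAMIT12 and NIP6;1 reached it in the well-watered groups alone.

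In gtl1-4 water deficit raised 7 members and lowered 1. AT5G15500, NUDT24, SWEET12, the pectin acetylesterase gene AT1G57590, AT3G61280, AT5G03395 and AT1G76960 rose, and UMAMIT12 fell. The 8 called members were 12.3% of the set, against 4.76% of all genes tested (2.36% raised and 2.4% lowered) and 5.9% of those at the expanding minimum. Of the 36 members at 10 CPM in each of the 4 groups, 2 were called. Members could enter through the deficit groups, so the larger share over all 65 supports nothing beyond its description. The median was 0.03 over members. The split of 7 to 1 depended on the fit: 16 rose and 11 fell with array weights, 10 and 9 when just the 2 groups were fitted, and 8 and 8 without well-watered Col-0 replicate 3 and water-deficit Col-0 replicate 2. The median ran from -0.05 without water-deficit gtl1-4 replicate 1 to 0.23 without well-watered gtl1-4 replicate 2. It was also below 0 without well-watered gtl1-4 replicate 1 (-0.03) or water-deficit gtl1-4 replicate 3 (-0.005), and with quantile scaling (-0.005). The median lay near 0 and its sign was not settled. With nuclear scaling it was 0.12 (0.09 over all genes) and with voom weights 0.25 (0.08 over all genes). AT5G15500, NUDT24, SWEET12, AT1G57590, AT5G03395 and UMAMIT12 were called in both genotypes in the same direction, 6 of the 24 calls in Col-0 and 6 of the 8 in gtl1-4. The sign was the same in both genotypes for 52 of 65 members (80%) and for 70.5% of all genes tested. The difference between the genotypes was tested as an interaction in limma, which called 0 members and 0 of 16522 genes. At an unadjusted p under 0.05 there were 7 members and 948 genes (5.74%).

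**Figure D2:**
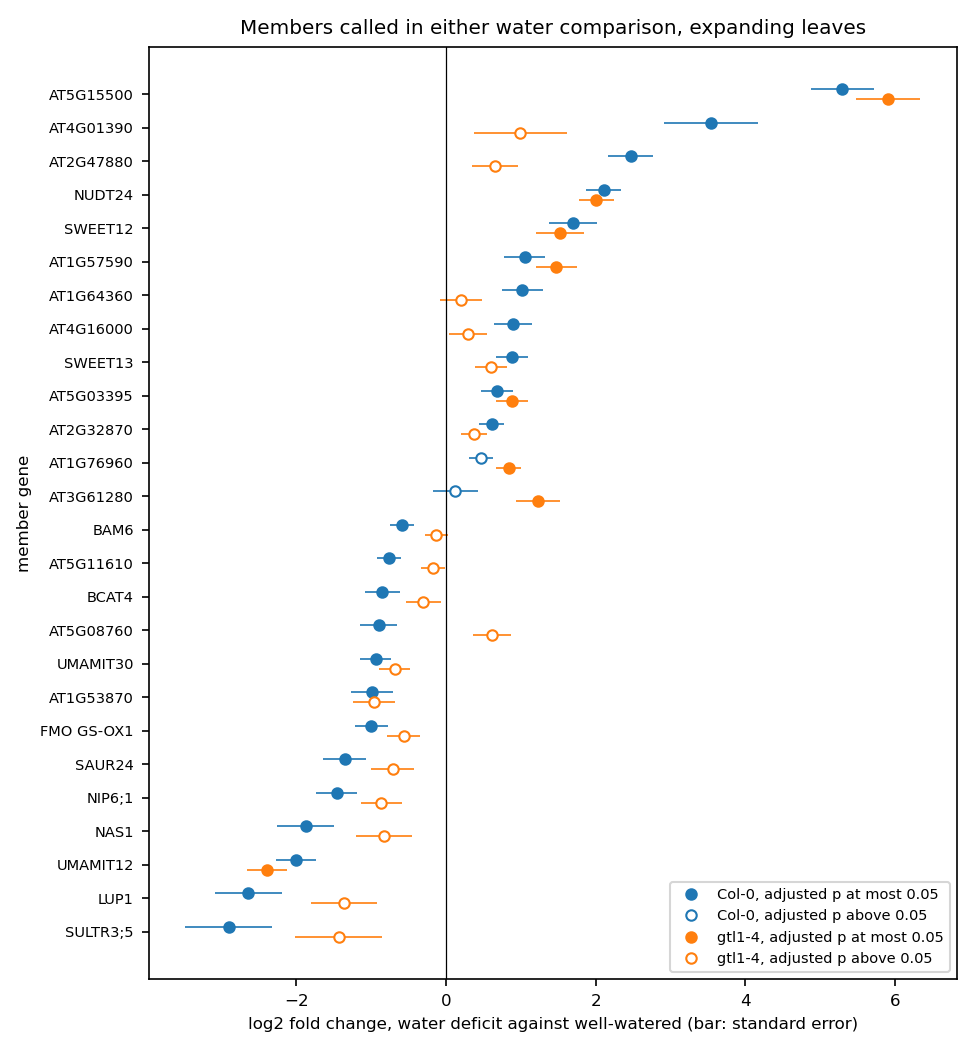
Log2 fold change with water deficit (x axis) for the 26 members called in either genotype (y axis), with standard error bars. Filled points passed adjusted p 0.05 and open points did not. AT5G15500 lies at 5.30 in Col-0 and 5.91 in gtl1-4, and SULTR3;5 at -2.91 and -1.44.

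Among the LURP-one-like, PCC1-like and ankyrin proteins, AT5G15500, an ankyrin repeat protein, gave the widest water response of the set. Its normalized counts were 3.85, 13.1 and 6.97 in well-watered Col-0 and 406, 310.0 and 259.7 under deficit (log2 fold change 5.30, SE 0.43, adjusted p 1.07e-06). In gtl1-4 they were 1.10, 2.82 and 0.621 and 120.3, 219.7 and 104 (log2 fold change 5.91, SE 0.43, adjusted p 5.63e-07). All 6 deficit libraries were above all 6 well-watered ones, in which the gene was read at a few counts, so its membership rests on the deficit libraries. Its group means were 52.2 CPM in water-deficit Col-0 and 1.25 when well-watered. PCC1 and AT3G22235 were not called with water in Col-0 (log2 fold changes -0.73 and -0.66, adjusted p 0.249 and 0.266).

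In the transport group 2 members rose and 4 fell with deficit in Col-0. SWEET12, a sucrose exporter of phloem loading, had 26.9, 21.4 and 36.6 normalized counts in well-watered Col-0 and 99.0, 67.7 and 115 under deficit (log2 fold change 1.69, SE 0.32, adjusted p 0.00233). In gtl1-4 its counts were 31.8, 55.0 and 21.1 and 111, 96.97 and 86.1 (log2 fold change 1.52, SE 0.32, adjusted p 0.00954). The deficit values lay above the well-watered values in both genotypes, and the groups did not overlap. Its relative SWEET13, also of the sucrose-transporting clade, went from 65.4, 126 and 109 to 165, 203 and 171 in Col-0 (log2 fold change 0.88, SE 0.21, adjusted p 0.0127). The SWEET13 call was lost when just the 2 groups were fitted (adjusted p 0.0547). In gtl1-4 SWEET13 did not pass (0.60, adjusted p 0.141). The SWEET12 call in gtl1-4 was lost without well-watered gtl1-4 replicate 3 or water-deficit gtl1-4 replicate 1 (adjusted p up to 0.0533). Of the 10 phloem markers 7 rose with deficit in Col-0, SWEET12 among them, and 1, SWEET12 itself, in gtl1-4. Over all genes tested 6.18% rose in Col-0 and 2.36% in gtl1-4. The interaction called 0 of the markers. For genotype limma called 1 marker, APL, higher in well-watered gtl1-4, as 0.708% of all genes tested were.

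The UMAMIT family of amino acid transporters gave 4 members. UMAMIT12 had 126, 131 and 182 counts in well-watered Col-0 and 38.3, 35.7 and 32.0 under deficit (log2 fold change -2.0047, SE 0.26, adjusted p 1.37e-04). In gtl1-4 it had 136, 161 and 127 and 18.3, 41.2 and 23.0 (log2 fold change -2.39, SE 0.26, adjusted p 4.65e-05). No deficit library reached any well-watered one in either genotype. UMAMIT30 fell in Col-0, from 252, 127 and 194 to 95.0, 89.8 and 102 (log2 fold change -0.94, SE 0.21, adjusted p 0.00706). In gtl1-4 it had 161, 190 and 171 and 95.4, 117 and 111, without overlap and without a call. UMAMIT11 (-0.10, adjusted p 0.867) and UMAMIT36 (0.77, adjusted p 0.0976) did not pass. Differences between these 4 genes were not tested.

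SULTR3;5, of the sulfate transporter family, had 154, 113 and 61.0 counts in well-watered Col-0 and 23.8, 2.46 and 29.4 under deficit (log2 fold change -2.91, SE 0.58, adjusted p 0.00359). In gtl1-4 it had 83.4, 113 and 113 and 40.7, 35.2 and 35.6, which did not pass (-1.44, adjusted p 0.211) although the groups did not overlap. NIP6;1, a channel for boric acid, had 96.2, 125 and 79.3 and 43.5, 22.1 and 45.0 counts in Col-0 (log2 fold change -1.46, SE 0.27, adjusted p 0.00233). In gtl1-4 it had 75.7, 97.4 and 76.3 and 49.0, 48.9 and 37.9, without overlap and without a call. Water-deficit Col-0 replicate 2 was the lowest of the 12 libraries for both genes, and both calls were kept without it. The MATE efflux gene AT3G26590 (-0.39) and the major facilitator gene AT5G14940 (0.28) were not called.

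NAS1 makes nicotianamine, a chelator that moves iron and other metals in the plant. It had 320.1, 270.3 and 235 counts in well-watered Col-0 and 108, 28.3 and 129 under deficit (log2 fold change -1.88, SE 0.38, adjusted p 0.00389). In gtl1-4 it had 299, 265 and 267 and 166, 125 and 180.2 and did not pass (-0.83, adjusted p 0.288), again with groups that did not overlap. The heavy metal transport and detoxification family gene AT1G51090 was at -0.15 in Col-0 (adjusted p 0.753).

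Of the 5 glucosinolate and methionine-family genes 2 fell with deficit in Col-0, and the signs of all 5 were negative in both genotypes. BCAT4, which starts methionine chain elongation, had 2388, 2186 and 1826 counts in well-watered Col-0 and 1491, 704 and 1535 under deficit (log2 fold change -0.85, SE 0.23, adjusted p 0.0236). FMO GS-OX1, which oxidises the sulphur of the glucosinolate side chain, had 766, 625 and 477 and 323, 207 and 424 (log2 fold change -1.0005, SE 0.22, adjusted p 0.00659). Deficit libraries were below well-watered ones for both, with replicate 2 the lowest. The aspartate kinase gene AK3, at the head of the pathway to methionine, lysine and threonine, was at -0.55 (adjusted p 0.0758). GSTF11, a glutathione transferase placed in glucosinolate synthesis, was at -0.85 (adjusted p 0.0584), and HMT3, which methylates homocysteine to methionine, at -0.24 (adjusted p 0.722). In gtl1-4 none of the 5 was called by limma, from -0.65 for GSTF11 to -0.22 for AK3. FMO GS-OX1 had 573, 618 and 629 and 426, 349 and 460 there. Its groups and those of GSTF11 did not overlap, while those of BCAT4, AK3 and HMT3 did. The BCAT4 call was lost without well-watered Col-0 replicate 1 or 2 or water-deficit Col-0 replicate 2 (adjusted p up to 0.0804).

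The glutaredoxin and thioredoxin family, small proteins that reduce or exchange thiols, had 3 members, and 1 was called. AT2G47880 had 66.9, 81.0 and 48.8 counts in well-watered Col-0 and 268, 642 and 271 under deficit (log2 fold change 2.47, SE 0.30, adjusted p 7.15e-05). In gtl1-4 it had 131, 207 and 115 and 236, 258 and 199.7, which overlap and did not pass (0.65, adjusted p 0.295). The interaction for this gene was -1.81, with adjusted p 0.784. AT3G21460 was at 0.63 and AT3G62950 at -0.06 in Col-0.

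TRAF-like proteins carry a domain first known from animal signalling adaptors. AT4G01390 had 50.8, 4.76 and 3.49 counts in well-watered Col-0 and 91.1, 203 and 111 under deficit (log2 fold change 3.54, SE 0.62, adjusted p 0.0015), with well-watered replicate 1 far above replicates 2 and 3. In gtl1-4 it had 45.0, 48.0 and 42.2 and 105, 77.2 and 91.8 (0.99, adjusted p 0.496). AT2G32870, the TRAF-like gene with the higher level per kb, had 886, 830.0 and 1019.7 and 1276, 1514 and 1377 in Col-0 (log2 fold change 0.61, SE 0.17, adjusted p 0.028). Its call was lost without well-watered Col-0 replicate 1 or 2 or water-deficit Col-0 replicate 2 or 3 (adjusted p up to 0.0832). The transcription factor gene MYB48 was not called in any of the 5 comparisons, with values between -0.36 (the interaction) and 0.16 (water in Col-0).

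**Figure D3:**
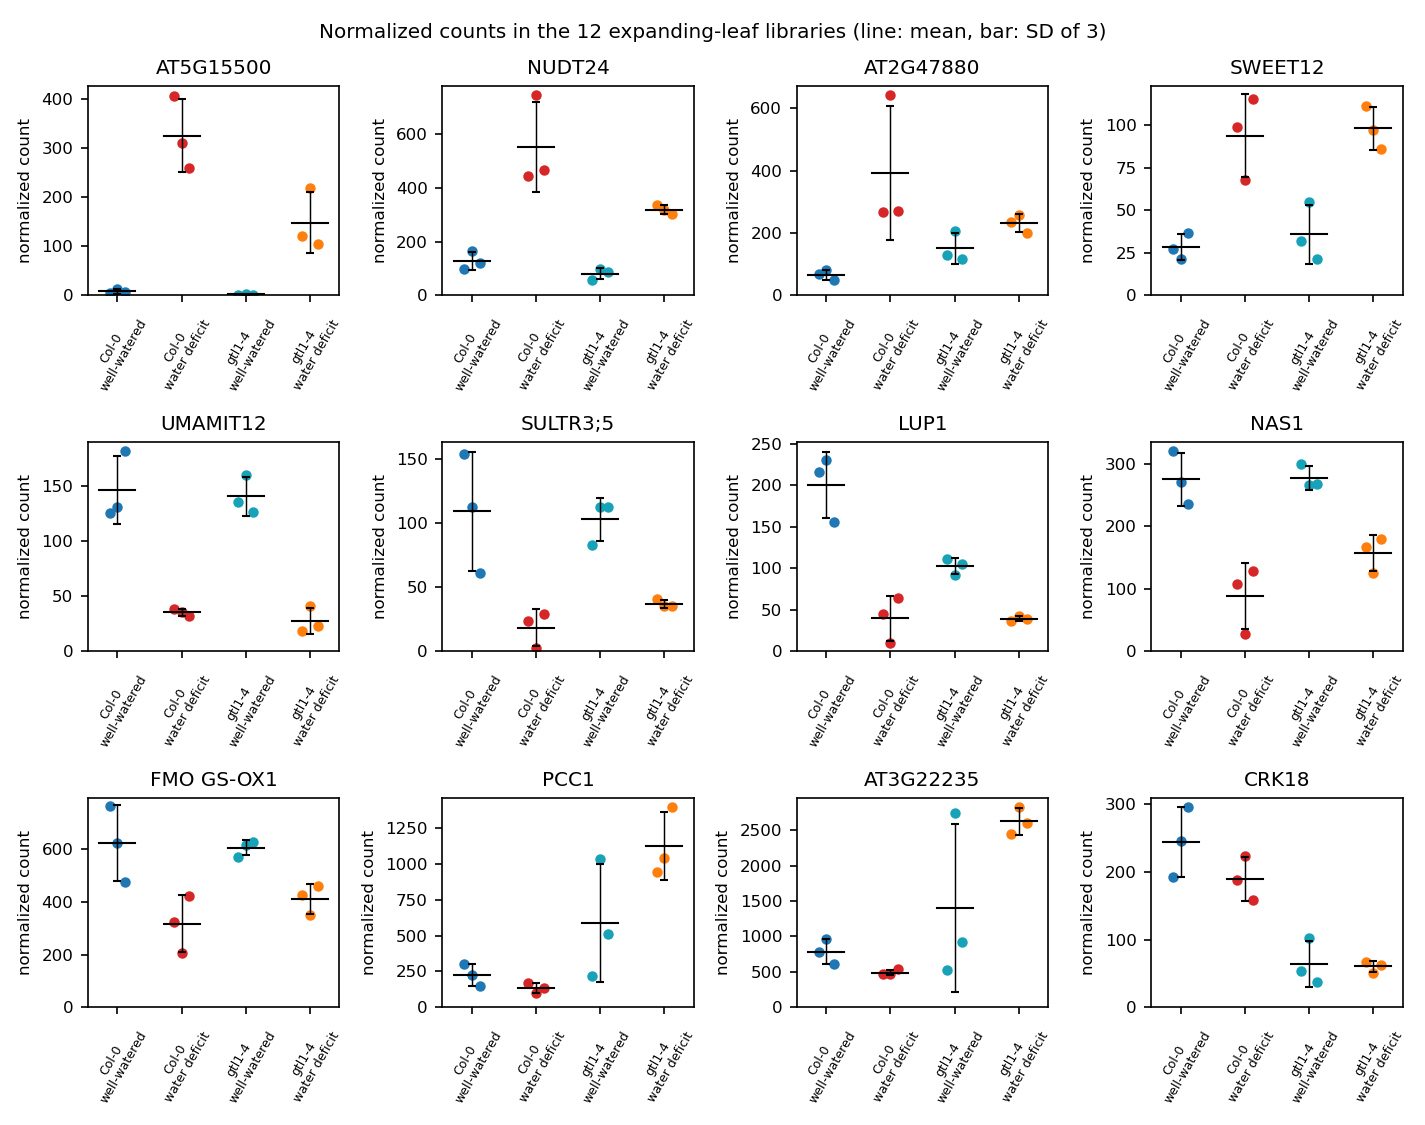
Normalized counts (y axis, from 0) of 12 members in the 4 expanding-leaf groups (x axis). Points are the 3 libraries, the line is their mean and the bar their SD. AT5G15500 sits between 0.621 and 13.1 in the 6 well-watered libraries and between 104 and 406 in the 6 deficit libraries, and PCC1 and AT3G22235 are high in water-deficit gtl1-4.

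Among the other enzymes NUDT24, a nudix hydrolase, rose in both genotypes. It had 97.7, 163 and 119 counts in well-watered Col-0 and 443, 745 and 468 under deficit (log2 fold change 2.11, SE 0.23, adjusted p 2.95e-05), and 57.0, 98.8 and 85.6 and 337, 317 and 304 in gtl1-4 (log2 fold change 2.01, SE 0.23, adjusted p 7.81e-05). Both calls were kept in every fit without 1 library. LUP1, which makes the triterpene lupeol, fell in Col-0 from 215, 231 and 155 to 44.9, 9.84 and 64.1 (log2 fold change -2.64, SE 0.44, adjusted p 0.00102). In gtl1-4 it had 111, 91.7 and 105 and 36.5, 42.0 and 39.0 (-1.36, adjusted p 0.101), with no overlap between the groups. BAM6, a beta-amylase of starch breakdown, was at -0.59 in Col-0 (adjusted p 0.0213), a call lost without well-watered Col-0 replicate 1 or 2 or water-deficit Col-0 replicate 1 (adjusted p up to 0.0728). The other 7 enzymes, among them GDH3 of glutamate metabolism, MIPS3 of inositol synthesis and 2 cytochromes P450, were not called with water in either genotype.

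In the cell wall and growth group SAUR24, a small auxin-responsive gene, fell in Col-0 from 400.1, 320.3 and 307 to 83.1, 197 and 142 (log2 fold change -1.35, SE 0.29, adjusted p 0.00557). AT5G11610, of the exostosin glycosyltransferase family, fell from 223, 229 and 308 to 161, 144 and 138 (log2 fold change -0.76, SE 0.16, adjusted p 0.00488). The expansin gene EXPA11, whose product loosens walls, was at -0.49 with adjusted p 0.0553. AT1G57590, a pectin acetylesterase gene, went the other way. It had 202, 170.3 and 105 and 438, 242 and 308 counts in Col-0 (log2 fold change 1.05, SE 0.27, adjusted p 0.0183) and 42.8, 74.8 and 66.4 and 180.0, 197 and 132 in gtl1-4 (log2 fold change 1.47, SE 0.27, adjusted p 0.00417). AT3G61280, of the rumi-like O-glucosyltransferase family, rose in gtl1-4 (log2 fold change 1.23, SE 0.30, adjusted p 0.0232) and was at 0.12 without a call in Col-0, and the interaction had adjusted p 0.845. The AT1G57590 call in Col-0 was lost without well-watered Col-0 replicate 3 or water-deficit Col-0 replicate 1 (adjusted p up to 0.0893), and that of AT3G61280 in gtl1-4 without well-watered gtl1-4 replicate 1 or 3 or water-deficit gtl1-4 replicate 2 or 3 (adjusted p up to 0.118).

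Of the 11 members without a clear role 3 rose and 1 fell in Col-0, and 2 rose in gtl1-4. AT1G64360 went from 68.5, 50.0 and 82.8 to 137, 208 and 84.8 in Col-0 (log2 fold change 1.02, SE 0.28, adjusted p 0.0236), AT4G16000 was at 0.89 (adjusted p 0.0283) and the non-coding RNA AT5G03395 at 0.68 (adjusted p 0.045). AT5G08760 fell in Col-0 from 96.2, 91.7 and 81.1 to 58.1, 50.4 and 36.4 (log2 fold change -0.90, SE 0.25, adjusted p 0.0258). AT1G76960 rose in gtl1-4, from 236, 226 and 203 to 459.6, 320.1 and 419 (log2 fold change 0.83, SE 0.16, adjusted p 0.00559), and its call was kept in every fit without 1 library. Calls of this group in Col-0 were each lost in some fits without 1 library. In such fits 1461 to 2135 of all genes tested were called, in place of 2231. That of AT1G64360 was lost without well-watered Col-0 replicate 2 or water-deficit Col-0 replicate 1 or 2 (adjusted p up to 0.109) and that of AT4G16000 without well-watered Col-0 replicate 2 or water-deficit Col-0 replicate 2 or 3 (adjusted p up to 0.0937). That of AT5G08760 was lost without well-watered Col-0 replicate 1 or 2 or water-deficit Col-0 replicate 3 (adjusted p up to 0.0919). AT5G03395 lost its call in Col-0 without well-watered Col-0 replicate 1 or 2 or water-deficit Col-0 replicate 2 or 3 (adjusted p up to 0.176) and in gtl1-4, where it was at 0.88, without well-watered gtl1-4 replicate 2 or 3 or water-deficit gtl1-4 replicate 1 or 2 (adjusted p up to 0.108).

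**Figure D4:**
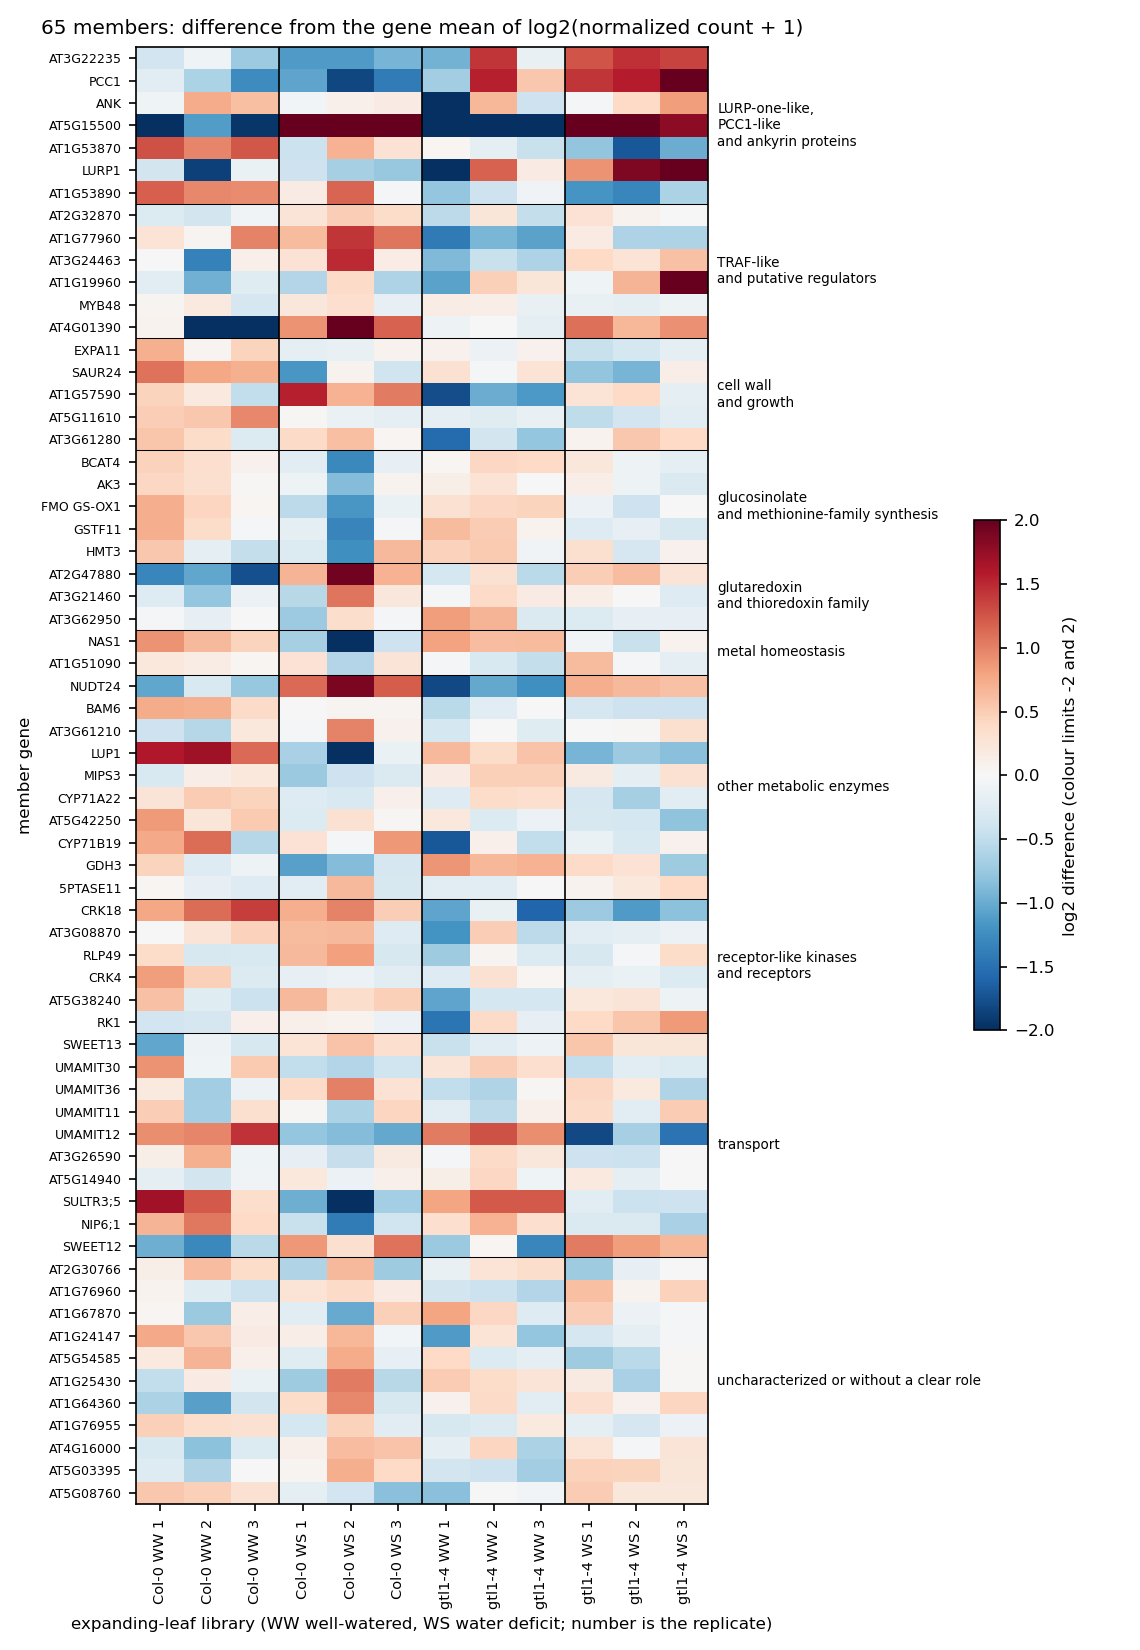
Difference of each expanding-leaf library (x axis) from the member's mean over 12 libraries, on the log2(normalized count + 1) scale, for all 65 members (y axis) ordered by role. Red is above and blue below the mean, with colour limits at -2 and 2. AT5G15500, NUDT24 and SWEET12 change with water in both genotypes, while PCC1, AT3G22235 and LURP1 have their highest single values in water-deficit gtl1-4.

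Between the genotypes, 8 members were called in well-watered leaves, all lower in gtl1-4. These were the receptor-like kinase gene CRK18, AT5G15500, AT1G77960, the LURP-one-like genes AT1G53870 and AT1G53890, AT1G57590, BAM6 and AT5G11610. They were 12.3% of the set, against 1.34% of all genes tested and 1.51% of those at the expanding minimum, and 0 members were higher, against 0.708% of genes higher and 0.636% lower. The median was -0.21 over members and 0.01 over all genes. It was -0.05 without well-watered Col-0 replicate 1 and -0.06 without well-watered gtl1-4 replicate 1. In each of those fits, with a replicate block, and without both libraries that stood apart, 1 member was called higher in gtl1-4. Of the 36 members at 10 CPM in each group, 2 were called. Under water deficit 3 members were called, 4.62% against 0.169% of all genes and 0.182% of those at the expanding minimum: PCC1 and AT3G22235 were higher in gtl1-4 (0.127% of genes were) and CRK18 was lower (0.0424%). Among the 36 members at 10 CPM in each group 2 were called, PCC1 and AT3G22235. Members could enter through the genotype in which they were higher, so the shares called for genotype support nothing beyond their description. With well-watered Col-0 replicate 3 and water-deficit Col-0 replicate 2 left out together, 22 members were called for water in Col-0 in place of 24, 16 for water in gtl1-4 in place of 8, 11 for genotype when well-watered in place of 8, and 2 for genotype under deficit in place of 3. Over all genes tested the calls went from 2231 to 1417, 787 to 1344, 222 to 246 and 28 to 26.

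CRK18, a cysteine-rich receptor-like kinase, was lower in gtl1-4 under both water supplies. It reached 10 CPM in the Col-0 groups (38.7 well-watered and 30.5 under deficit) and not in gtl1-4 (9.56 and 9.68). Its membership thus rests on the Col-0 libraries. With full water it had 192, 245 and 295 counts in Col-0 and 53.7, 102 and 36.6 in the mutant (log2 fold change -2.02, SE 0.29, adjusted p 0.00242). With deficit the counts were 187, 224 and 158 and 67.2, 50.6 and 63.1 (log2 fold change -1.63, SE 0.29, adjusted p 0.0256). No gtl1-4 library reached any Col-0 library, and the gene did not pass for water in either genotype. The well-watered call was kept in every fit without 1 library, while the deficit call was lost without water-deficit Col-0 replicate 1 or 2 or water-deficit gtl1-4 replicate 1, 2 or 3 (adjusted p up to 0.189). The other 5 receptor-like members were not called in any comparison, and for CRK4, of the same family, the well-watered difference was -0.32 (adjusted p 0.563).

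PCC1 and AT3G22235 encode small proteins, the first of them controlled by pathogens and the circadian clock. Their genes lie 7.58 kb apart on chromosome 3. With deficit PCC1 had 167, 97.9 and 132 counts in the Col-0 libraries and 941, 1041 and 1394 in those of the mutant (log2 fold change 3.09, SE 0.40, adjusted p 0.00133), with all 3 mutant libraries above all 3 of Col-0. AT3G22235 had 465, 465 and 536 and 2442, 2823 and 2603 (log2 fold change 2.42, SE 0.38, adjusted p 0.00821), again without overlap. When well-watered, PCC1 had 302, 225 and 146 in Col-0 and 216, 1033 and 511 in gtl1-4 (1.17, adjusted p 0.182), and AT3G22235 had 782, 957 and 615 and 528, 2747 and 918 (0.51, adjusted p 0.563). Replicate 2 of well-watered gtl1-4 was as high as the deficit libraries of the mutant for both genes, and replicate 1 was at the level of Col-0. The PCC1 call under deficit was kept in every fit without 1 library, and that of AT3G22235 was lost without water-deficit gtl1-4 replicate 2 or 3 (adjusted p up to 0.062). The interactions were 1.92 and 1.91 (adjusted p 0.845 and 0.785).

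Part of the transcript sequence of these genes is not unique. Of the 100-base stretches of AT3G22235, 47.7% occur also in at least 1 other gene. The gene that holds the most of them is AT3G22240, a neighbouring gene read at a mean of 0.201 CPM in expanding leaves. For PCC1 10.3% of the stretches occur in another gene, most of all in AT3G22235. LURP1, the LURP-one gene needed for basal defence against a downy mildew, had 40.9, 34.4 and 32.0 counts in the Col-0 libraries with deficit and 103, 203 and 278 in those of the mutant, without overlap and without passing (2.30, adjusted p 0.303). The mean of LURP1 was 31.6 CPM in the mutant under deficit and at most 9.91 CPM in any other group. Its membership thus rests on the deficit libraries of the mutant, and the lack of overlap supports nothing beyond its description. In well-watered gtl1-4 LURP1 had 10.97, 126 and 61.4, with replicate 1 the lowest and replicate 2 the highest. PCC1 and AT3G22235 had the same order. The ankyrin gene ANK, with 17.6, 219 and 104, had that order too. Members of other roles, such as BCAT4, NUDT24 and RLP49, also had it, and others, such as SAUR24, did not. The order is therefore not particular to these genes, and its share over all members was not counted. Of 12 tested salicylic acid defence genes PR5 alone was called for water in Col-0. It was lower under deficit (log2 fold change -2.51, limma adjusted p 0.00118), as 7.32% of all genes tested were. By limma 0 of the 12 were called for water in gtl1-4 or for genotype at either water supply. At an unadjusted p under 0.05 there were 0, 3 (well-watered) and 1 (deficit), against 16.2%, 14.7% and 6.65% of all genes tested. The list summed to 100 to 161 CPM in the 12 expanding libraries.

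AT1G53870 and AT1G53890 are LURP-one-like genes 10.74 kb apart on chromosome 1 whose gene sequences are 100% identical over 1820 bases, as are their 250-base windows. Their reads cannot be told apart, so their sum is the interpretable value, and the 2 calls are not independent. The sum was 315 ± 30.0 normalized counts in well-watered Col-0 and 119.6 ± 2.92 in its mutant counterpart (SD, n = 3), with ranges of 283 to 343 and 117 to 123. The deficit values were 186 ± 74.3 for Col-0 and 67.3 ± 16.8 for the mutant. Taken singly, the well-watered differences were -1.37 for AT1G53870 (adjusted p 0.0239) and -1.45 for AT1G53890 (adjusted p 0.0266). The first was lost without well-watered Col-0 replicate 1 or 3 or well-watered gtl1-4 replicate 2 or 3 (adjusted p up to 0.111), and the second without well-watered Col-0 replicate 1, 2 or 3 or well-watered gtl1-4 replicate 1, 2 or 3 (adjusted p up to 0.121). With water in Col-0, AT1G53870 was at -0.98 (adjusted p 0.0297), a call lost without well-watered Col-0 replicate 1 or 3 or water-deficit Col-0 replicate 1 (adjusted p up to 0.134), and AT1G53890 at -0.60 (adjusted p 0.21).

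**Figure D5:**
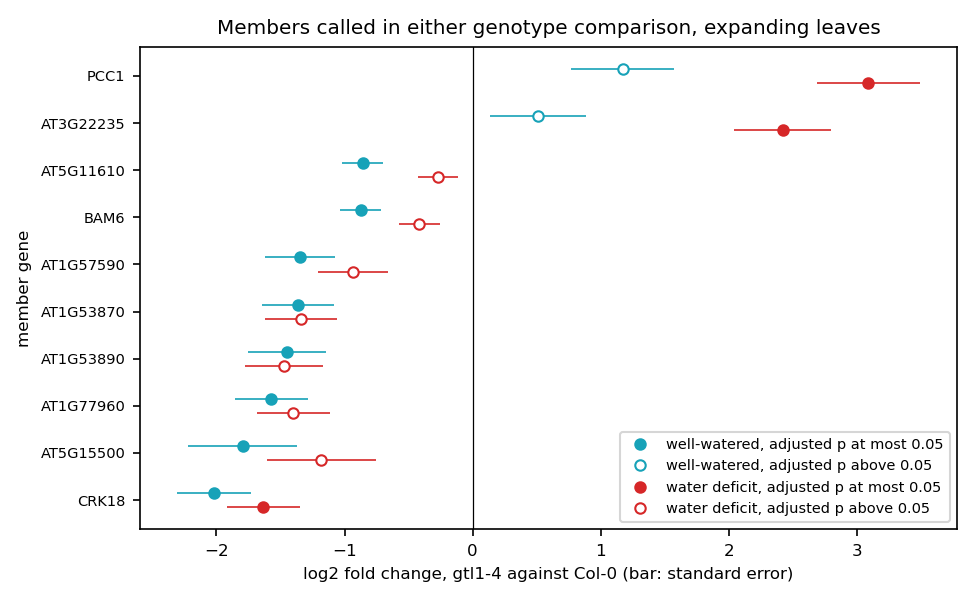
Log2 fold change of gtl1-4 against Col-0 (x axis) for the 10 members called in either genotype comparison (y axis), with standard error bars. Filled points passed adjusted p 0.05 and open points did not. CRK18 is at -2.02 well-watered and -1.63 under deficit, and PCC1 is at 1.17 and 3.09.

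The other genotype calls were in well-watered leaves. AT1G77960, annotated as a repressor ROX1-like protein, had 93.9, 81.0 and 156 counts in Col-0 and 28.5, 40.9 and 36.6 in gtl1-4 (log2 fold change -1.57, SE 0.29, adjusted p 0.0127). AT1G57590 had the counts given above (log2 fold change -1.35, SE 0.27, adjusted p 0.0219), and BAM6 had 335, 327 and 259.7 and 136, 171 and 197 (log2 fold change -0.87, SE 0.16, adjusted p 0.0123). In each case every mutant library lay below every Col-0 library. AT5G11610 had 139, 133 and 141 in gtl1-4 (log2 fold change -0.86, SE 0.16, adjusted p 0.014). The smallest levels were those of AT5G15500, at 0.621 to 2.82 counts in gtl1-4 and 3.85 to 13.1 in Col-0 (log2 fold change -1.80, SE 0.43, adjusted p 0.0499). Under deficit these 5 genes were at -1.40, -0.93, -0.42, -0.27 and -1.18 in the order named, and none passed in limma (adjusted p 0.0754 to 0.846).

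Each of these 5 calls was lost in some fits without 1 library. In such fits 79 to 214 of all genes tested were called, in place of 222. That of AT1G77960 was lost without well-watered Col-0 replicate 3 or well-watered gtl1-4 replicate 1 (adjusted p up to 0.0595), and that of AT1G57590 without well-watered Col-0 replicate 1 or 2 or well-watered gtl1-4 replicate 1 or 3 (adjusted p up to 0.099). The BAM6 call was lost without well-watered Col-0 replicate 1 or well-watered gtl1-4 replicate 1 (adjusted p up to 0.0561). That of AT5G11610 was lost without well-watered Col-0 replicate 3 or well-watered gtl1-4 replicate 2 or 3 (adjusted p up to 0.0569). The AT5G15500 call was lost without well-watered Col-0 replicate 2 or 3 or well-watered gtl1-4 replicate 1 or 3 (adjusted p up to 0.182). It was also lost with a pseudocount of 5, without a variance trend, when genes of low value were kept, when a mean of 50 or more was required, with array weights or voom weights, when just the 2 groups were fitted, and without both libraries that stood apart (adjusted p up to 0.438). Of the 43 calls of members over all comparisons, 22 were kept in every fit without 1 library: 15 of 24 for water in Col-0, 5 of 8 for water in gtl1-4, 1 of 8 for genotype when well-watered and 1 of 3 under deficit.

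Some members sit beside each other on the chromosome. AT1G76955 and AT1G76960 are adjacent, 0.55 kb apart on chromosome 1. Their gene sequences were 50.7% identical when aligned end to end. The same alignment gave 44.7% for the genes and 52.6% for the windows of AT5G54585 and ANK, so relatedness cannot be read from it. Neither AT1G76955 nor AT1G76960 shares a 100-base stretch of transcript with another gene. AT1G76960 rose with deficit in gtl1-4, while AT1G76955 was at -0.08 (adjusted p 0.918). AT5G54585 and ANK lie 7.81 kb apart on chromosome 5, and neither was called. No 100-base stretch of transcript is shared with another gene for 57 of the 65 members.

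AT2G30766, annotated as uncharacterized, is the one member on a list of 25 genes for iron, phosphate, nitrate and sulphate shortage, of which 9 were tested and 0 called by limma for water in Col-0 (2 at an unadjusted p under 0.05, median -0.43). It had 328, 468 and 389.6 counts in well-watered Col-0 and 199, 475 and 184 under deficit (-0.59, adjusted p 0.193), groups that overlap. For water in Col-0 the leaf senescence list had 2 rises (SWEET15 and NRT1.7) among 12 tested, the camalexin list 1 rise (GSTF6) among 2, the jasmonate and defensin list 2 falls (TAT3 and CLH1) among 11, and the list for floral transition in leaves 0 calls among 6 (1 at an unadjusted p under 0.05). For water in gtl1-4 these 4 lists, in that order, had 1 rise (SWEET15), 1 rise (GSTF6), 2 falls (LOX4 and CLH1) and 0 calls (2 at an unadjusted p under 0.05). For genotype limma called 0 of their genes at either water supply. At an unadjusted p under 0.05 there were 3, 1, 6 and 1 when well-watered, and 0, 0, 5 and 0 under deficit. The share over all genes tested was 14.7% and 6.65%, and for water 28.3% in Col-0 and 16.2% in gtl1-4. In that order the median log2 fold changes were 0.042, 0.58, 0.681 and 0.182 when well-watered, and -0.095, 0.619, 0.403 and -0.24 under deficit. With water 6.18% of all genes tested were called as raised and 7.32% as lowered in Col-0, and 2.36% and 2.4% in gtl1-4. None of these 4 lists holds a member. In all, 31 members were called in at least 1 comparison and 34 in none, among them AK3, EXPA11 and MYB48.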

How the data were processed

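Leaf mRNA of 24 libraries in 8 groups was analysed, the 12 expanding-leaf libraries for tests. The values, a normalized signal deposited by the authors, behave as gene counts that were each divided by a size factor of their library, with 1 table for each leaf age. The submitters' processing notes name STAR, RSEM, Trim Galore, Trimmomatic, FastQC and bcl2fastq, and build TAIR10, while how the size factors were set is not given in the sources. Of low values 96.5 to 97.9% were whole multiples of a step per library (tolerance 0.01), which gave each depth. Because the rest are fractional, no count model was used.

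In limma 3.58.1 (R 4.3.3), log2(value + 1) of the 12 expanding libraries was fitted with all 4 groups together and a variance trend, over genes whose mean reached 10, with Benjamini-Hochberg adjustment over 16522 genes and a threshold of 0.05. Adjusted p-values are limma's, fold changes understate low genes, and the spread behind each p-value is that of pooled samples. The fit was checked on simulated data. Leaf ages were scaled separately and not tested. Members named are the 10 highest, up to 6 rises and 6 falls per comparison, list members, genes at the limits, and neighbours or families; others were named after their values were seen, as examples of their role. The members, lists and roles were chosen with earlier results of these data known. Names (37051 identifiers matched by locus tag) and promoter windows came from RefSeq TAIR10.1. Strand use in counting is not stated, so overlapping genes are uncertain. Alternatives were pseudocounts of 0.5 and 5, no filter, a mean of at least 50, nuclear and quantile scaling, no trend, array weights, 2-group fits, a replicate block, other limits of the rule, leaving out each library and, chosen after seeing the data, voom weights and leaving out 2 libraries together. Python 3.11.15 with matplotlib 3.10.9 drew the figures.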

Additional observations from a re-analysis of the deposited data

Results flagged for a closer look

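AT5G08760, an uncharacterized protein, drew attention because its water response differed in direction between the genotypes. In Col-0 every deficit library (58.1, 50.4 and 36.4 normalized counts) lay below every well-watered one (96.2, 91.7 and 81.1). In gtl1-4 every deficit library (93.8, 77.2 and 76.9) lay above every well-watered one (36.2, 66.3 and 63.3). The interaction was 1.52 on the log2 scale (SE 0.35, unadjusted p 0.000574), and its adjusted p in limma was 0.784, so the difference did not pass over all genes.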

How the results depend on the processing

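The number of members depends on the limits. It was 39 with an emerging mean of at most 0.25, 114 at most 1, 125 with an expanding mean of at least 5, 26 at least 20, 14 with organelle genes kept in the totals, 66 with medians (58 shared with the 65), and 62 to 67 without 1 expanding library. Called members for water in Col-0 were 17 to 25 under other settings and 18 to 26 without 1 library. Over all genes the 2231 calls became 1131 to 2310 under other settings and 1461 to 2135 without 1 library. For water in gtl1-4, 8 became 27 with array weights, 19 when just the 2 groups were fitted, 16 without both libraries that stood apart, and 5 to 13 without 1 library, highest without well-watered gtl1-4 replicate 2 and lowest without well-watered gtl1-4 replicate 3. Over all genes the 787 calls became 1772, 1265 and 1344 in the first 3 of these, and 389 to 559 without 1 library. For genotype when well-watered, 8 became 4 without a variance trend, 4 when just the 2 groups were fitted, and 3 to 6 without 1 library, lowest without well-watered replicate 3 of either genotype. The 222 calls over all genes became 123, 81 and 79 to 214 in the same fits. For genotype under deficit, 3 became 1 without a trend, 7 with array weights and 1 to 4 without 1 library, lowest without water-deficit gtl1-4 replicate 2 or 3. The 28 calls over all genes became 22, 112 and 15 to 53 in the same fits. The interaction count was 0 to 1 without 1 library: AT4G01390 without well-watered Col-0 replicate 1 and AT3G22235 without well-watered gtl1-4 replicate 2. The cause of these shifts was not tested.

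Of 1952 alternative values for 104 gene results, 1787 kept direction and side of the threshold, 112 lost the call, 51 gained it and 2 changed sign: AT3G22235 for genotype when well-watered, at -0.15 without gtl1-4 replicate 2 and up to 1.04 without gtl1-4 replicate 1, and the AT5G15500 interaction, at -0.21 with a pseudocount of 5. Neither was called. That 2-group fit was not run for the interaction. Same-numbered samples did not deviate together (correlations -0.16 to 0.13, 2 of 18 above 0.1), so the numbers name samples. With the replicate block 23, 8, 9, 3 and 0 members were called for water in Col-0, water in gtl1-4, genotype when well-watered, genotype under deficit and the interaction. Nuclear depth of 4.74 to 10.04 M counts limits genes of a few counts, such as AT5G15500 when well-watered.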
